A study of Drosophila melanogaster with 10 samples.

Results

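Glial identity and ensheathing genes of the adult *Drosophila* ventral nerve cord (VNC) are described here across uninjured and injured cords. They are repo, alrm, wrapper, nrv2, gcm, loco and Inx2, 7 of the 14351 genes with numeric counts, chosen by name because each marks glia as a whole, a class of glia, or the way glia wrap and couple to their neighbours. Each was found in the table by its FlyBase gene identifier (repo FBgn0011701, alrm FBgn0039332, wrapper FBgn0025878, nrv2 FBgn0015777, gcm FBgn0014179, loco FBgn0020278 and Inx2 FBgn0027108). In the BDGP6 annotation repo, alrm and loco lie on chromosome arm 3R, nrv2 and gcm on 2L, wrapper on 2R and Inx2 on X. No coordinates are given because the reads were aligned to an earlier release of the genome.

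Glia of the fly arise from precursors in which the transcription factor Gcm switches on glial genes, among them repo, which then holds the glial fate, and loco. Mature glia divide into astrocytes, which send fine processes into the synaptic neuropil, ensheathing and wrapping glia, which surround neuropil and axons, cortex glia, which enclose neuronal cell bodies, and surface glia, which form the blood-brain barrier. The repo product is a homeodomain protein of nearly all glia outside the midline, alrm encodes a leucine-rich repeat protein of astrocytes, and wrapper an immunoglobulin-family surface protein by which glia adhere to axons. The nrv2 gene encodes a beta subunit of the sodium and potassium pump, Inx2 a gap junction channel protein, and loco a regulator of G protein signaling.

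The study asked which genes change in the VNC when many of the axons that enter it are cut at the same time. RNA-seq was made from whole VNCs of adult *w1118* flies of mixed sex, 5 libraries from uninjured flies starved for 5 hours in vials with 2% agar, and 5 from flies dissected 5 hours after 6 legs, 2 wings and the head had been cut off, which were kept on a 2% agar plate in humid air. The agar strength is that of the labels, and the study's methods name agarose of a lower strength for both groups. The uninjured flies kept their appendages and head, and both groups were of the same genotype. Flies were 3 to 10 days old by the labels and 3 to 5 days old by the study's methods, and each library came from a pool of cords, so the replicates are pools and not single animals. Housing, loss of the severed parts and axotomy itself differ together between the groups and cannot be told apart. A lower level in such bulk tissue can come from fewer cells of a type or from less RNA per cell. Levels are shares of a library, so more RNA of other cells or tissues can also lower them. These cannot be told apart either.

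Library totals were 5763891 to 6640492 counts in uninjured VNCs and 5146470 to 6625705 counts in injured VNCs. Levels are given as CPM, the counts as a share of the library total after TMM scaling, times 1e+06, or, where genes are compared with each other, as the deposited TPM, which is scaled to transcript length. Libraries are numbered by their column in the count table, and the labels give no meaning to a number shared by an uninjured and an injured library. The tissue label was matched by its markers: all 8 neuronal markers were measured, with a summed level of 6256 to 7977 CPM in uninjured and 6321 to 8603 CPM in injured VNCs. The 6 muscle markers summed to 1851 to 3209 CPM in uninjured and 816 to 7159 CPM in injured VNCs, the 5 fat body markers to 5509 to 6799 and 3895 to 5688 CPM, and the 5 tracheal markers to 57.2 to 65.0 and 44.9 to 66.0 CPM. The 7 hemocyte markers (Hml, NimC1, eater, Pxn, srp, He and Sr-CI) summed to 673 to 1069.7 CPM in uninjured and 452 to 569.7 CPM in injured VNCs, with no overlap. No marker in these lists stayed at or under 3 counts in every library.

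The 7 genes spanned a wide range of levels. The pump subunit gene nrv2 was the most abundant, with means of 542 ± 88.5 TPM without and 410.5 ± 98.5 TPM with injury (SD, n = 5). The astrocyte gene alrm followed at 393 ± 47.5 and 297 ± 59.9 TPM, and its range overlapped that of nrv2 in both groups. In uninjured VNCs the mean of alrm was 5.48 times that of the next gene, repo, which stood at 71.8 ± 6.18 and 49.9 ± 2.20 TPM. Below repo came Inx2 (59.3 ± 6.56 and 37.9 ± 6.21 TPM), wrapper (38.7 ± 0.829 and 20.1 ± 4.58 TPM) and loco (13.7 ± 1.58 and 14.7 ± 1.39 TPM). In uninjured VNCs no 2 neighbours from alrm down to gcm had overlapping ranges. In injured VNCs the order was kept, but wrapper (14.2 to 25.2 TPM) and loco (13.1 to 16.7 TPM) then overlapped. The fate gene gcm was last in both groups, at 0.163 ± 0.0851 and 0.124 ± 0.0692 TPM.

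**Figure D1:**
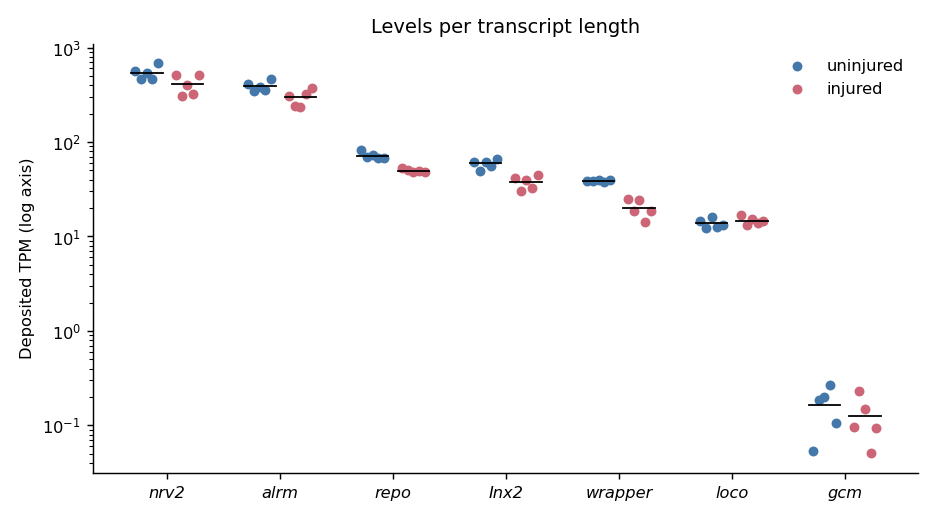
Level of each gene per transcript length in the 10 libraries, as deposited TPM on a log axis, with blue points for the 5 uninjured and red points for the 5 injured libraries and a black line at each group mean. The genes are ordered by their uninjured mean, from nrv2 at 542 TPM to gcm at 0.163 TPM, and the wrapper and loco points meet only in the injured group.

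After injury 3 of the 7 genes were lower, wrapper, Inx2 and repo, and none was higher. Levels of wrapper were 1.86-fold lower, those of Inx2 1.50-fold lower and those of repo 1.38-fold lower. The astrocyte gene alrm and the pump gene nrv2 had lower means that did not pass the test, loco had a slightly higher mean that did not pass, and gcm was too scarce to be tested with the others. The comparison was made by edgeR's quasi-likelihood test over the 9365 genes whose mean TPM exceeded 2 in uninjured or injured VNCs, and a gene passed when its p, adjusted by the Benjamini-Hochberg method over all of them, was under 0.01. Of these genes 13.7% passed in either direction and 6.13% were lower in injured VNCs, against 3 of the 6 tested here. The median log2 fold change of the 6 genes was -0.41, and that of all genes tested -0.00094. The genes were chosen with earlier results of these data known, so neither contrast is a test of them as a set. In the same libraries 4 of 6 hemocyte markers tested fell. Their log2 fold changes were -1.08 for Hml, -1.28 for eater, -1.77 for NimC1 and -1.91 for Sr-CI (adjusted p = 0.00589, 0.00418, 0.000353 and 0.000454 in edgeR's test). Pxn (log2 fold change -0.16, adjusted p = 0.0237 in edgeR's test) and srp (0.27, adjusted p = 0.468) did not pass, and He was too scarce to be tested. The calls of NimC1 and Sr-CI held in every alternative. Hml lost its call on leaving out any of uninjured libraries 2 and 4 and injured libraries 3, 4 and 5 (adjusted p of 0.0111 to 0.0160) and with no filter, and eater on leaving out any of uninjured library 2 and injured libraries 3, 4 and 5 (0.0101 to 0.0130). Both also lost it on the TPM scale and without uninjured libraries 2 and 4 together (0.0163 and 0.0252). Of the 5 fat body markers, all tested, apolpp fell (log2 fold change -0.88, adjusted p = 0.000871 in edgeR's test). The other 4 did not pass, with log2 fold changes of -0.13 to 2.18. None of 8 neuronal, 6 muscle and 2 tracheal markers tested passed. The part of hemocytes in the lower glial genes was not tested. An unplanned fit left out uninjured libraries 2 and 4, which had the highest hemocyte sums (975 and 1069.7 CPM). In it the log2 fold changes of repo, wrapper and Inx2 were -0.54, -0.95 and -0.72 and all 3 passed. The hemocyte sums of the 3 uninjured libraries left, 673 to 684 CPM, were still above those of all injured libraries, so this fit did not test that part either.

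**Figure D2:**
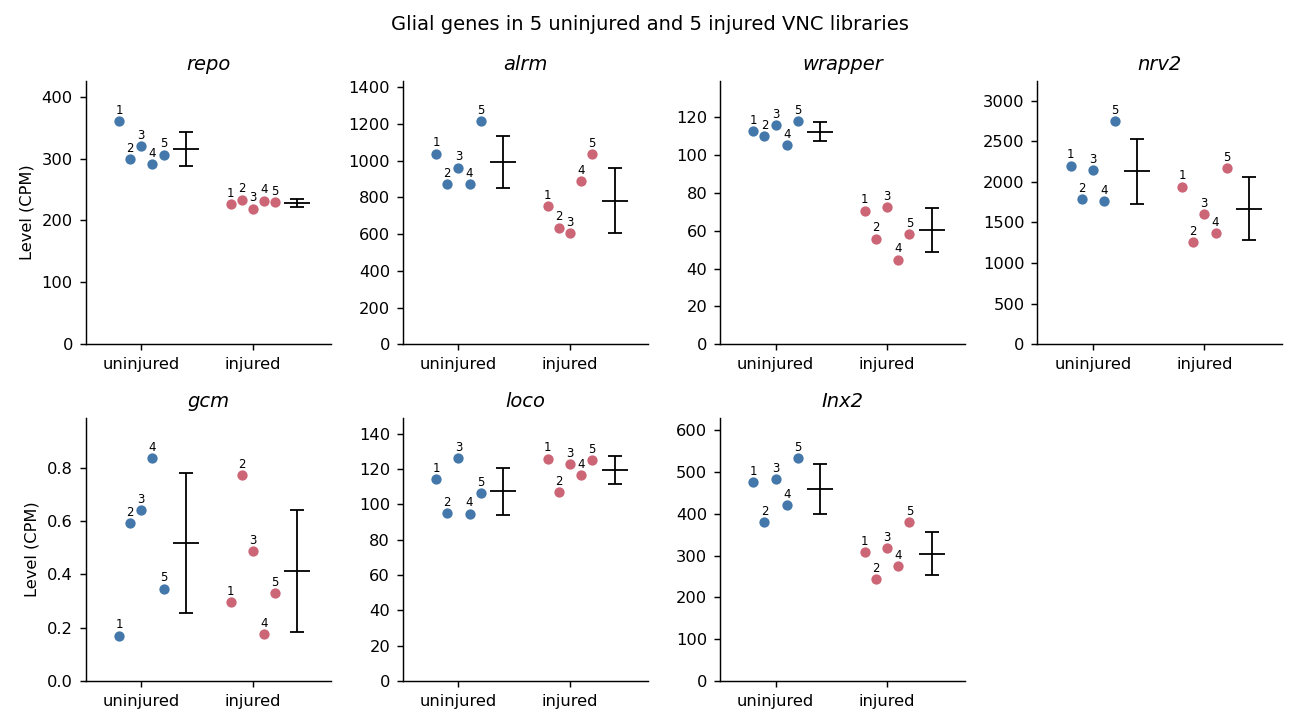
Level of each of the 7 genes (CPM, axis from 0) in every library, with numbered points for the 5 uninjured (blue) and 5 injured (red) libraries and, beside them, the mean ± SD. The repo and wrapper points of the 2 groups do not overlap, and those of Inx2 touch at 379 and 380.4 CPM. For alrm and nrv2 they overlap in part, with 3 injured points of each below all uninjured ones, and those of loco and gcm overlap widely.

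The pan-glial gene repo fell. It stood at 360.5, 299.5, 319.8, 291 and 306 CPM in uninjured libraries 1 to 5. In injured libraries 1 to 5 it stood at 226, 234, 219, 232 and 229.7 CPM. Every injured library lay below every uninjured one, and the injured libraries lay within a narrow band, with a coefficient of variation of 2.52% against 8.65% in uninjured VNCs (4.41% and 8.60% on the TPM scale). The groups' CPM ranges did not overlap for 16.5% of all genes tested. The group means were 315 ± 27.3 and 228 ± 5.74 CPM (SD, n = 5), and the log2 fold change was -0.47 (95% interval -0.60 to -0.34, adjusted p = 8.70e-05 in edgeR's test). In BDGP6 the exons of repo overlap those of CG7156 on the other strand, which held 167 to 217 counts in uninjured and 139 to 206 in injured libraries against 1212 to 2118 for repo. The library kit, TruSeq RNA Sample Preparation v2, does not mark strand, so reads of repo and CG7156 over shared exons could not be told apart.

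The fate gene gcm was barely detected. It had 1, 4, 4, 5 and 2 counts in uninjured libraries 1 to 5 and 2, 4, 3, 1 and 2 counts in injured libraries 1 to 5, in a table whose smallest value is 1, where a listed 1 need not be a read. The means of 0.518 ± 0.261 and 0.412 ± 0.230 CPM (SD, n = 5) gave p = 0.508 in a 2-sided exact permutation test over the 252 divisions of the libraries, where the smallest p is 0.00794. A difference in gcm was not detectable at this depth, and its exons overlap those of CG31709 on the same strand. Of the 4 other fate factors listed beside it, gcm2, the close relative of gcm, stayed below the filter with 2 to 11 counts, and none of the 3 tested passed. The homeodomain gene pros, which is used by astrocytes and by many neurons, had 1224 ± 102 CPM in uninjured and 1575 ± 228 CPM in injured VNCs (adjusted p = 0.0239 in edgeR's test). It passed without injured library 1 (log2 fold change 0.44, adjusted p = 0.000983) and with DESeq2 (adjusted p = 0.00370). The repressor gene ttk had 42.2 ± 10.5 and 34.6 ± 2.92 CPM (SD, n = 5; adjusted p = 0.155 in edgeR's test).

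The astrocyte gene alrm stood at 1039, 873, 962, 873 and 1216 CPM in uninjured libraries 1 to 5. It stood at 751, 635, 606, 889 and 1034 CPM in injured libraries 1 to 5. Injured libraries 1, 2 and 3 lay below every uninjured library, and injured libraries 4 and 5 lay among them. The log2 fold change was -0.34 (95% interval -0.66 to -0.03, adjusted p = 0.110 in edgeR's test), an interval that also holds the value of repo. Of the 7 other astrocyte genes, all tested, 1 rose, 1 fell and 5 did not pass, with a median log2 fold change of -0.19. The fibroblast growth factor receptor gene htl, which guides astrocyte growth into the neuropil, fell from 167 ± 11.2 to 131 ± 14.9 CPM (SD, n = 5; adjusted p = 0.00563 in edgeR's test). That call was lost without uninjured library 1, 3 or 5, without injured library 2 or 4, and with no filter (adjusted p of 0.0121 to 0.0173). The 1 that rose was e, the gene of the amine-conjugating enzyme Ebony, with 131 ± 22.7 CPM in uninjured and 657 ± 103 CPM in injured VNCs (adjusted p = 5.55e-08). The GABA transporter gene Gat had 1765 ± 349 and 1285 ± 359.9 CPM (adjusted p = 0.0858 in edgeR's test), and the glutamine synthetase gene Gs2 had 1230.2 ± 167 and 1192 ± 271 CPM (adjusted p = 0.842).

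Of the 7 genes, wrapper had the largest log2 fold change. It stood at 113, 110.1, 116, 105 and 118 CPM in uninjured libraries 1 to 5. It stood at 70.5, 55.7, 72.5, 44.7 and 58.1 CPM in injured libraries 1 to 5. No injured library reached the lowest uninjured one, and while the uninjured libraries were close to each other the injured ones were spread, the highest at 72.5 and the lowest at 44.7 CPM. The group means were 112 ± 4.93 and 60.3 ± 11.4 CPM (SD, n = 5), and the log2 fold change was -0.89 (95% interval -1.13 to -0.66, adjusted p = 5.14e-05 in edgeR's test). The lowest level was in injured library 4, and without that library the log2 fold change of wrapper was -0.80. The same library had the highest muscle sum, 7159 CPM, and a part of muscle tissue in the wrapper level was not tested. Nrx-IV, which encodes the axonal partner of Wrapper at the midline, had 322 ± 17.7 and 318 ± 9.81 CPM (95% interval of the log2 fold change -0.13 to 0.09), and klg, which encodes a related immunoglobulin-family protein, had 208 ± 10.6 and 218 ± 9.43 CPM (95% interval -0.04 to 0.18). Neither passed.

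Of 6 listed genes of ensheathing and wrapping glia, all tested, 2 rose and 4 did not pass, with a median log2 fold change of -0.08. The engulfment receptor gene drpr rose, with 187 ± 3.88 CPM without and 411 ± 7.38 CPM with injury (SD, n = 5; adjusted p = 1.82e-09 in edgeR's test). The transporter gene bumpel, listed by the files as CG6723, rose from 139 ± 17.4 to 208 ± 32.5 CPM (adjusted p = 0.00209), a call that was lost without uninjured libraries 2 and 4 (adjusted p = 0.0153) and on the TPM scale (adjusted p = 0.0225 and 0.0239). The neurexin-family gene axo had 527 ± 40.8 and 452 ± 38.8 CPM (adjusted p = 0.0429), and the transporter gene Eaat2 had 266 ± 24.8 and 228 ± 7.50 CPM (adjusted p = 0.0244). Eaat2 passed without uninjured library 4 (log2 fold change -0.29, adjusted p = 0.00244) and in 4 of 21 alternatives in all. The lowest log2 fold change of the list was that of rumpel (CG9657), at -0.62, which did not pass (adjusted p = 0.0155 in edgeR's test). Its group means were 210 ± 43.9 and 136 ± 31.2 CPM, and its adjusted p was under 0.01 in 6 of 21 alternatives. Of 3 cortex glia genes, 2 were found and tested. The cytochrome gene Cyp4g15 fell from 379 ± 47.1 to 269 ± 31.7 CPM (adjusted p = 0.00263), a call that was lost with no filter (adjusted p = 0.0104), and the fatty acid binding protein gene fabp had 193 ± 12.4 and 157 ± 22.8 CPM (adjusted p = 0.0281), passing without injured library 3 (log2 fold change -0.39, adjusted p = 0.00164) and with DESeq2 (adjusted p = 0.00799). The third, zyd, could not be matched.

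The pump gene nrv2 stood at 2199, 1788, 2143, 1762 and 2747 CPM in uninjured libraries 1 to 5. It stood at 1942, 1258, 1605, 1368.5 and 2173 CPM in injured libraries 1 to 5. Injured libraries 2, 3 and 4 lay below every uninjured library, and injured libraries 1 and 5 lay within the uninjured range. The log2 fold change was -0.35 (95% interval -0.70 to 0.0014, adjusted p = 0.140 in edgeR's test). Of the 7 other pump subunit genes 6 were matched, 4 were tested and none passed, with a median log2 fold change of -0.02. The alpha subunit gene Atpalpha, whose product carries the ion transport and is made in neurons and glia, had 7759.8 ± 1085 and 7198 ± 1084 CPM (95% interval -0.39 to 0.17). The neuronal beta subunit gene nrv3 had 2052 ± 298 and 1962 ± 181 CPM (95% interval -0.29 to 0.16). The CG5250 and CG11703 genes stayed below the filter with 1 to 9 counts, and JYalpha could not be matched to a single entry.

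The gap junction gene Inx2 fell. It stood at 476, 379, 483, 420.1 and 534 CPM in uninjured libraries 1 to 5. It stood at 307, 243, 317, 275 and 380.4 CPM in injured libraries 1 to 5. Of the 5 injured libraries 4 lay below every uninjured library, and the ranges overlapped only where injured library 5 met uninjured library 2. The group means were 458 ± 59.8 and 305 ± 51.4 CPM (SD, n = 5), and the log2 fold change was -0.59 (95% interval -0.84 to -0.33, adjusted p = 0.00280 in edgeR's test). Of the 7 other innexin genes 4 were tested, of which 1 fell and 3 did not pass, with a median log2 fold change of -0.03. The 1 that fell was ogre, whose product forms channels together with Inx2 in fly glia. Its group means were 158 ± 21.7 and 101 ± 18.9 CPM (SD, n = 5), and its log2 fold change was -0.64 (95% interval -0.90 to -0.37, adjusted p = 0.00219). Inx3, which partners Inx2 in epithelia, had 87.5 ± 12.4 and 83.7 ± 8.87 CPM (95% interval -0.28 to 0.16), and the neuronal innexin gene shakB had 84.4 ± 3.36 and 104 ± 16.6 CPM (adjusted p = 0.0481), passing without injured library 1 (log2 fold change 0.38, adjusted p = 0.000172). Inx5 and Inx6 had 1 to 4 counts in every library, and zpg, the innexin gene of the germline, had 3 to 49 counts in uninjured and 1 to 9 in injured libraries.

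The G protein regulator gene loco stood at 115, 95.3, 126, 94.8 and 107 CPM in uninjured libraries 1 to 5. It stood at 126, 107, 123, 117 and 125 CPM in injured libraries 1 to 5. All injured libraries lay within the uninjured range, 4 of them above the uninjured mean. The mean was 108 ± 13.4 CPM in uninjured and 119.6 ± 7.99 CPM in injured VNCs (SD, n = 5), and the log2 fold change was 0.15 (95% interval -0.02 to 0.33, adjusted p = 0.196 in edgeR's test). That interval lies above those of repo, wrapper and Inx2. The value moved either way with single libraries, at 0.10 without uninjured library 2 or 4 and 0.22 without uninjured library 3. It was 0.03 without uninjured libraries 2 and 4 together, and 0.09 to 0.10 on the TPM scale. On that scale the median log2 fold change of all genes tested was itself lower, at -0.058 to -0.055 against -0.00094 in edgeR's fit. The exons of loco overlap those of an antisense RNA gene, asRNA:CR43474, whose count was not analysed here. Of 5 G protein partners of Loco, all tested, 1 rose and 4 did not pass, with a median log2 fold change of 0.0032. The 1 that rose was pins, whose product binds the alpha subunit Galphai, with 62.8 ± 2.57 CPM in uninjured and 92.4 ± 10.1 CPM in injured VNCs (adjusted p = 0.000116). The alpha subunit gene Galphao had 459.9 ± 50.8 and 470.5 ± 39.7 CPM (95% interval -0.15 to 0.21), and the gamma subunit gene Ggamma1 had 1957 ± 169 and 1953 ± 138 CPM (95% interval -0.18 to 0.17).

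In surface glia Loco acts below Moody, a G protein-coupled receptor of the blood-brain barrier. Of 4 surface glia genes 1 rose, 2 fell and 1 did not pass. The moody gene rose, with group means of 67.7 ± 6.87 and 107 ± 11.7 CPM (SD, n = 5; adjusted p = 1.00e-04 in edgeR's test). The transporter genes Mdr65 and Tret1-1 fell, with log2 fold changes of -1.85 and -1.30 (adjusted p = 1.48e-05 and 2.97e-08), and the junction gene Gli had 23.6 ± 1.79 and 24.8 ± 2.18 CPM (adjusted p = 0.612). Over the 9 neighbouring lists together, 37 of 45 genes were tested, of which 5 rose, 5 fell and 27 did not pass, with a median log2 fold change of -0.05.

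**Figure D3:**
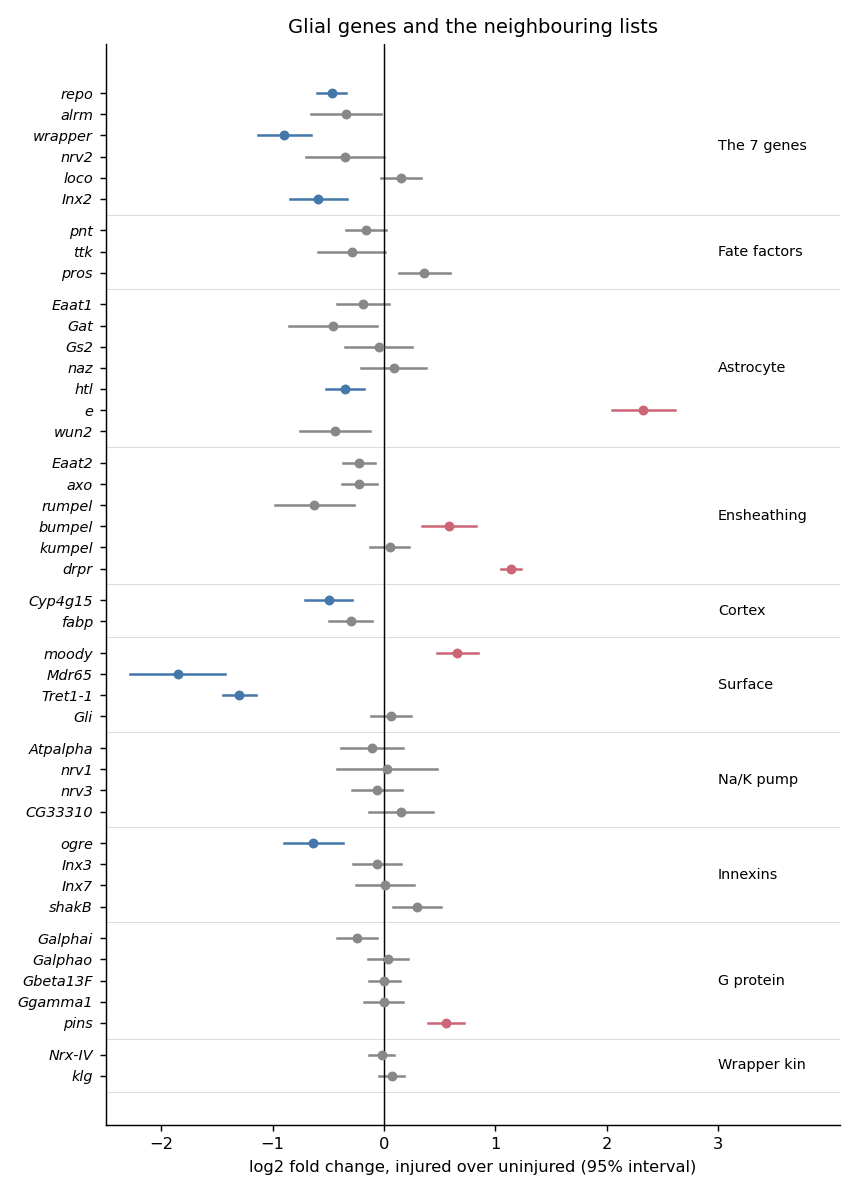
Log2 fold change of injured over uninjured VNCs with its 95% interval for the 6 genes tested and for the 37 tested genes of the 9 neighbouring lists, named at the right. Red genes passed as higher, blue genes passed as lower and grey genes did not pass at an adjusted p of 0.01. The intervals of repo, wrapper and Inx2 lie below 0, that of loco spans 0, and the lists hold genes that moved in either direction, from Mdr65 at -1.85 to e at 2.33.

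Within a library, each gene was also set against repo, as the log2 of the ratio of their CPM, which leaves out the library total and the scaling. These ratios carry no test. For loco the ratio ran from -1.65 to -1.34 in uninjured and from -1.13 to -0.83 in injured VNCs, with no overlap, so that loco took a larger share relative to repo in every injured library. Because repo itself fell (log2 fold change -0.47), a gene with a steady level also rises against it. The share of all genes without overlap in this ratio was not computed. For wrapper the ratio ran from -1.68 to -1.38 and from -2.38 to -1.60, lower on average by 0.45, with injured library 3 inside the uninjured range and the other 4 below it. The ratio of alrm to repo had means of 1.65 ± 0.193 and 1.75 ± 0.311 (SD, n = 5), that of nrv2 2.74 ± 0.247 and 2.84 ± 0.346, and that of Inx2 0.53 ± 0.180 and 0.40 ± 0.260. For these 3 genes the ranges of the 2 groups overlapped and the means differed by less than the SD. These overlaps hold for repo as the reference: against Atpalpha the ranges of loco overlapped and those of alrm, wrapper and Inx2 did not. The spread of the ratio was wider in injured VNCs for alrm, wrapper, nrv2 and Inx2, and about the same for loco (SD 0.133 and 0.125).

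**Figure D4:**
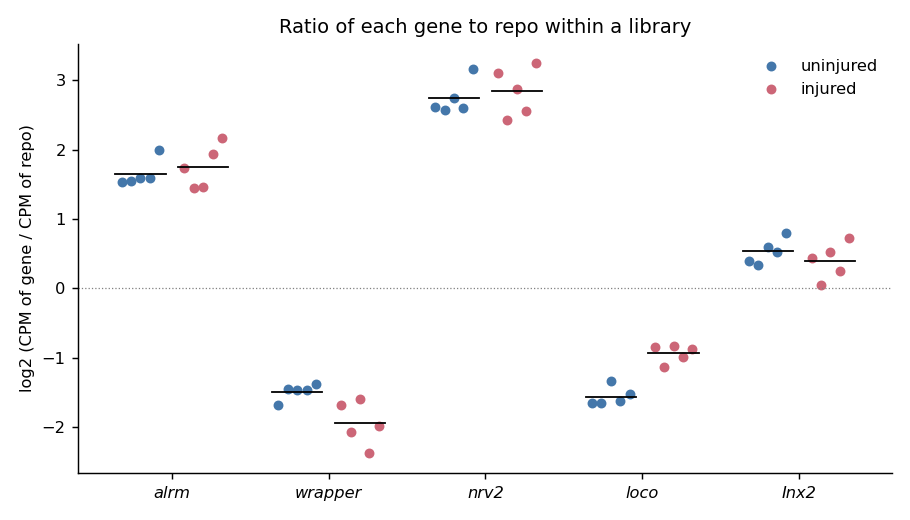
Log2 of the CPM of each gene over the CPM of repo in the same library, with 5 uninjured (blue) and 5 injured (red) points and a black line at each group mean. The loco points of the injured group lie above all those of the uninjured group (-1.13 to -0.83 against -1.65 to -1.34), most injured wrapper points lie lower, and alrm, nrv2 and Inx2 overlap. The reference, repo, itself fell after injury.

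The genes were also compared by their whole profile, the log2 CPM of each of the 10 libraries less the mean over the 10. For each of the 6 genes with a median of at least 100 counts, the 2 genes with the smallest root mean square distance among all genes tested were taken. For repo these were Nop17l (distance 0.0698) and the hexokinase gene Hex-A (0.0735), for alrm the ammonium transporter family gene Rh50 (0.0621) and the fatty acid transport gene Fatp3 (0.0773), and for wrapper the ceramidase gene CDase (0.0920) and the cathepsin gene CtsK1 (0.120). For nrv2 they were CG7888 (0.0899) and CG33296 (0.111), for loco the gene listed as scruin like at the midline (FBgn0026173; 0.0789) and D19B (0.0795), and for Inx2 the immunoglobulin-family gene bdl (0.0785) and JhI-21 (0.104). The median distance of all genes ran from 0.240 for loco to 0.525 for wrapper. A small distance to repo, wrapper or Inx2 holds a lower injured level by construction.

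No member was the nearest gene of another. The closest pair was nrv2 and Inx2, at a distance of 0.164, with Inx2 the 41st gene from nrv2 and nrv2 the 54th from Inx2. Next came nrv2 and alrm at 0.207 and repo and Inx2 at 0.210, and the most distant pair was wrapper and loco at 0.565. The profiles of nrv2, Inx2 and alrm were high in uninjured library 5 and, among the injured libraries, in library 5, while wrapper was lowest in injured library 4 and repo was nearly flat over the injured libraries. All libraries share the same 2 groups and scaling, so these distances describe the profiles and carry no test.

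**Figure D5:**
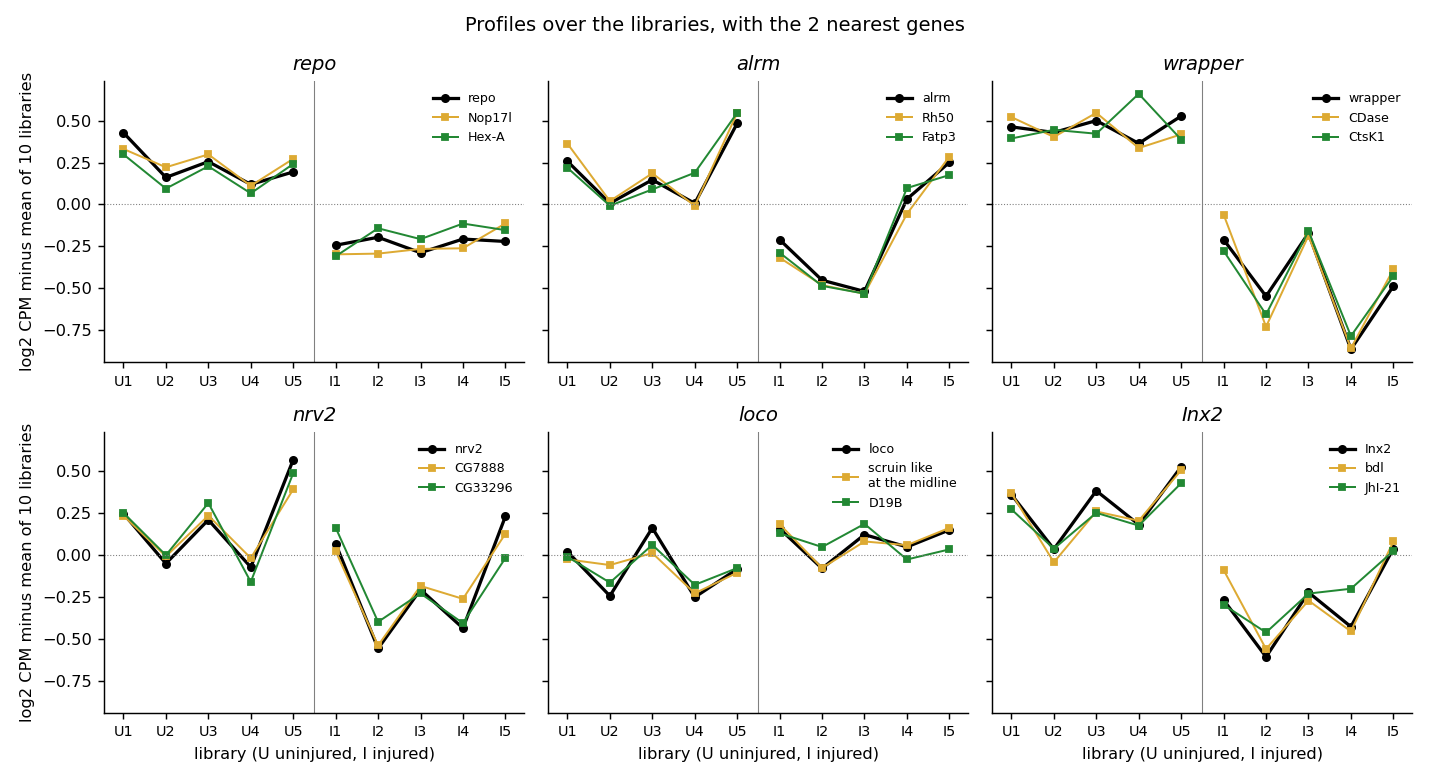
Log2 CPM less the mean over the 10 libraries for each of 6 glial genes (black) and its 2 nearest genes (yellow and green), in uninjured (U1 to U5) and injured (I1 to I5) libraries. The lines only join the points of a gene, and the libraries have no order. Injured points of repo lie in a narrow band, those of wrapper reach their lowest at I4, and those of nrv2, Inx2 and alrm are highest at I5.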

How the data were processed

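Total RNA (325 ng) from pooled VNCs was depleted of ribosomal RNA without poly(A) selection and sequenced as 100 bp single reads. The authors aligned reads with BWA in GeneSifter to *Drosophila* Release 5 and deposited estimated counts per gene, all within 0.00063 of a whole number and none below 1, which were rounded here. They also deposited TPM values, which follow the formula of RPKM: count per kilobase of the longest transcript and per mapped read, scaled by 1e+06. The submitters' processing notes name limma, with no version given in the sources used here. Columns of the authors' own comparisons (fold changes and p-values) and the quality sheets were not used. Of 14352 genes, 1 with a value that was not a number was left out.

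Counts were tested in R 4.3.3 with edgeR 4.0.16, without covariates and with the 10 libraries in 1 fit. Library totals covered all genes, and TMM factors (0.968 to 1.04) the 9365 tested. With limma-voom, which the study's methods name, 1223 genes passed against 1281 with edgeR. Alternatives were run with limma 3.58.1 and DESeq2 1.42.0, with other scaling and filters, on log2(TPM + 0.5) and log2(TPM + 1), with the column number as a block, and with each library left out. Nothing says whether the pools were dissected separately, and the p-values cover only the spread seen between libraries. The 7 genes, the gene lists and the markers were chosen with earlier results of these data known. Named genes are the 7, each listed gene past the threshold with up to 2 others of highest mean CPM, and the 2 nearest profiles. The rumpel gene was named besides, for the lowest log2 fold change of its list. Symbols come from the reference table, which named 13158 of 14351 identifiers.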

Additional observations from a re-analysis of the deposited data

Results flagged for a closer look

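Among groups of 5 libraries, a few values stood far from the other 4 (a gap above 0.71 of the group's range, which chance gives in about 1 in 20 groups). Uninjured library 5 had the highest ratio to repo for alrm, a log2 ratio of 1.99 against 1.59 for the next library, and for nrv2, 3.16 against 2.74. Among the neighbouring genes, the highest uninjured value of ttk was 60.5 CPM against 41.7, that of Gli 26.8 against 23.1, and that of pins 67.3 against 62.6, and the highest injured value of Gs2 was 1667 CPM against 1163. In all, 6 of 118 groups met the rule.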

How the results depend on the processing

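With a threshold of 0.05 in place of 0.01, 2238 genes passed against 1281, and the other alternatives gave 975 to 1586. With 1 library left out at a time the count was 975 to 1562. On log2(TPM + 0.5) and log2(TPM + 1) the median log2 fold change of all genes tested was -0.058 and -0.055, so calls on the TPM scale carry this offset. The calls on repo, wrapper and Inx2 held in all 21 alternatives, with the highest adjusted p, 0.00954, for Inx2. Neither alrm nor loco passed in any of the 21, and gcm gave no call. The labels do not pair the column numbers, and they were not taken as pairs: correlations of the deviations of same-numbered libraries ran from -0.142 to 0.299, and 3 of 5 numbers matched best with their own. With the column number as a replicate block, 1170 genes passed and nrv2 passed too, at a log2 fold change of -0.36 (adjusted p = 0.00798), as did Gat (-0.48, adjusted p = 0.00512), wun2 and rumpel. With Atpalpha as the reference gene in place of repo, the injured minus uninjured difference of the log2 ratio was -0.25 for alrm, -0.81 for wrapper, -0.25 for nrv2, 0.27 for loco and -0.49 for Inx2, against 0.10, -0.45, 0.10, 0.62 and -0.13, and that of repo itself to Atpalpha was -0.35. With TPM in place of CPM these differences were unchanged by construction. Depth limits what can be seen of a difference in gcm.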
